A study of Mus musculus with 15 samples.

Results

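Acetylation of lysine 27 of histone H3 (H3K27Ac) in pancreatic islets was compared between mice fed a high-fat diet (HFD) and mice fed a regular diet (RD). The material was hand-picked islets of male CBA mice, about 600 islets per chromatin immunoprecipitation (ChIP) experiment, pooled after collagenase digestion of the pancreas. Mice were put on their diet at 10 weeks of age and stayed on it for 9 weeks by the methods and 10 weeks by the account of the results. The HFD and RD groups had 2 ChIP samples each, and the authors merged the 2 before calling peaks, so that each diet had 1 list. HFD-O304, the same fatty diet with the AMPK activator O304, and the repressive mark H3K27Me3 are mentioned only where they bear on a region found here. In all, 15 samples and 6 peak lists with 111297 peaks make up the series.

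Peaks on chromosomes 1 to 19 were taken, 15847 in RD and 21021 in HFD, and joined into 1 region wherever they overlapped by 1 bp or more. The union held 22625 regions. A region called in HFD alone was named gained, a region called in RD alone lost, and a region called in both diets shared. The level of a region is its enrichment, the mean pileup of fragments divided by the uniform background of its list, which was 12.1 fragments per base in RD and 13.7 in HFD. With 1 list per diet no difference between diets could be tested. The intervals below are 95% intervals that cover counting error only, and the variation between mice or between the 2 samples of a diet is not in them.

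H3K27Ac is laid down by the acetyltransferases p300 and CBP at active promoters and enhancers, and it is removed by histone deacetylases. On the same residue it excludes trimethylation by Polycomb, so that a given histone tail carries either the active or the repressive mark. In β-cells the mark is abundant at the genes of transcription factors that hold the cell's identity, such as Pdx1 and Nkx6-1, and at genes of insulin secretion. A fatty diet makes insulin demand rise, and β-cells then enlarge, divide and load their endoplasmic reticulum (ER), which is why genes of secretion, protein folding and the cell cycle were followed here.

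The HFD list was the deeper of the pair. It rested on 95218072 fragments after removal of duplicates against 83773042 for RD, or 1.14 times as many. The lowest level that could be called was therefore 2.26 in HFD and 2.40 in RD. Peaks below a level of 10 held 4.21% of the kept fragments in HFD and 2.996% in RD, and all peaks covered 25.0 Mb and 17.4 Mb. Diet and depth cannot be told apart in these counts.

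The regions that carry the comparison are shown here by the central 300 bp of the gained promoter regions with the most fragments above background and of a lost one (GRCm38, plus strand). They are the windows at Bod1 (chr11:31671095-31671394), Slc17a9 (chr2:180725456-180725755), Kcnn3 (chr3:89521476-89521775), Khsrp (chr17:57031794-57032093) and, lost, Ccdc88b (chr19:6856077-6856376). Capitals mark a match to any of 10 short motifs that were searched on both strands, here the homeodomain letters TAATTA at Kcnn3.
Bod1: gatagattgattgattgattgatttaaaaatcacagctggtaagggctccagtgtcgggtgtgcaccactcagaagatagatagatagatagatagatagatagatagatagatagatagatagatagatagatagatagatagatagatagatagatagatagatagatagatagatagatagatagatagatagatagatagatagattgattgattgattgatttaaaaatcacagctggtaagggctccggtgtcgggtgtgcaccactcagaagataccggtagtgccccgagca
Slc17a9: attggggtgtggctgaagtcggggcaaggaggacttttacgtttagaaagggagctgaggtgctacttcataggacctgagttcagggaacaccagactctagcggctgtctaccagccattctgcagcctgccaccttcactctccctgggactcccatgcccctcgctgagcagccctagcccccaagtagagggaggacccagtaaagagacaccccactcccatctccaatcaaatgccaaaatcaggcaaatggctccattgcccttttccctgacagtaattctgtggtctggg
Kcnn3: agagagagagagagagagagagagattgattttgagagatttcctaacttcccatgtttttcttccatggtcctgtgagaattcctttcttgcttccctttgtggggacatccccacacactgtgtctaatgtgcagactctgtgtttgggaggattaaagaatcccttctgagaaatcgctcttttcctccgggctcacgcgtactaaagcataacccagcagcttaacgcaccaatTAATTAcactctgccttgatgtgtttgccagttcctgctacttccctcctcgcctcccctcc
Khsrp: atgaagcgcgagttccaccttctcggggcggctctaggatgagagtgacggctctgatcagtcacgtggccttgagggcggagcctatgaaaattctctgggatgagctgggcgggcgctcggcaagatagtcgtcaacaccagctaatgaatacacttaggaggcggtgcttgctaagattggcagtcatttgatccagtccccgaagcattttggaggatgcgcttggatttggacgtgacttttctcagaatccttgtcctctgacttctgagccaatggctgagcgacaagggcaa
Ccdc88b: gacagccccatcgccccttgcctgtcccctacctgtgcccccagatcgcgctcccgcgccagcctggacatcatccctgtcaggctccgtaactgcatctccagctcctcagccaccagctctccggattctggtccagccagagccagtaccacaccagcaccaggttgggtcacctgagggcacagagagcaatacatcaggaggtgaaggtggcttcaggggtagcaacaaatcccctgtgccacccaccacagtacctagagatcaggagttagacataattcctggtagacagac

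The window at Bod1 is largely a tandem repeat of gata, and that at Kcnn3 opens with a run of ag. The windows of Slc17a9, Khsrp and Ccdc88b hold no such repeat. The G and C share was lowest at Bod1, with 37.0%, and highest at Ccdc88b, with 59.3%. The reference is that of C57BL/6J mice, and differences of the CBA genome from it were not assessed.

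How much H3K27Ac appeared and disappeared under HFD was examined first. Of all regions, 7033 were gained (31.1%), 1673 were lost (7.39%) and 13919 were shared. There were thus 4.20 gained regions for each lost one. The excess depended on how peaks were chosen. When the 15847 peaks with the highest −log10 q were taken from each diet, 3082 regions were gained and 2877 were lost, which is 1.07 gained for each lost. Equal numbers of peaks largely fix that balance near 1 in advance. It therefore does not show how much of the excess came from list length. A common lowest level of 2.40 gave 4655 and 2185. At gene promoters an excess remained with equal lists, with 920 genes gained against 445 lost. Promoters then held 32.0% of gained and 17.9% of lost regions, so that away from promoters lost regions outnumbered gained ones.

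Most of the gained and lost regions were short and close to the calling limit. Gained regions had a median length of 504 bp and a median HFD level of 2.46, and lost regions 382 bp and a median RD level of 2.58. Shared regions were longer, with a median of 1183 bp, and had median levels of 3.02 in RD and 3.13 in HFD. In 2378 gained regions the HFD level was below 2.40, the lowest that the RD list could have reported. Only 321 gained regions reached 1.25 times that RD limit and 43 reached 1.5 times, while 318 and 49 lost regions did so against the limit of HFD. Gained regions added 4.88 Mb of covered sequence and lost regions removed 0.846 Mb, whereas sequence in shared regions went from 16.5 Mb in RD to 20.1 Mb in HFD.

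**Figure D1:**
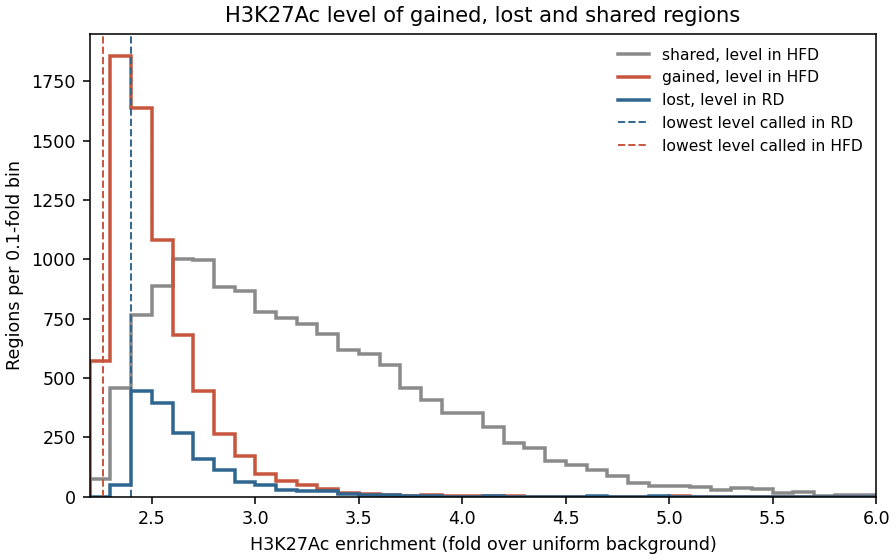
Number of regions per 0.1-fold bin (vertical axis) against H3K27Ac enrichment over the uniform background (horizontal axis), for gained and shared regions in HFD and lost regions in RD. Dashed lines mark the lowest level called in each list, 2.26 in HFD and 2.40 in RD. Gained and lost regions crowd against these limits, and shared regions extend far above them.

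The genomic setting differed between the classes. Promoters were taken as the 1000 bp before and after each transcript start of protein-coding genes. They were overlapped by 22.9% (21.9 to 23.9) of gained regions, 14.05% (12.5 to 15.8) of lost regions and 66.1% (65.3 to 66.9) of shared regions. Introns held 37.6% of the gained and 37.9% of the lost regions, and sequence between genes held 35.6% and 45.3%. Repeat-masked bases made up 50% or more of 22.3% (21.3 to 23.3) of gained and 41.1% (38.7 to 43.4) of lost regions, against 12.4% of shared ones. Gained regions were thus nearer to genes and poorer in repeats than lost regions. Their median G and C share was 55.5% against 52.3% for lost and 59.7% for shared regions. An H3K27Me3 peak of RD or HFD lay on 29.2% of gained and 30.5% of lost regions, and on 18.5% of shared regions.

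Gained regions well above the limit were more often at a promoter than the class as a whole. Of the 321 gained regions at 1.25 times the RD limit, 56.4% (50.9 to 61.7) were at a promoter and 21.8% were rich in repeats. Of the 318 comparable lost regions, 12.3% (9.10 to 16.3) were at a promoter and 71.7% (66.5 to 76.4) were rich in repeats. At 1.5 times the limit 15 of 43 gained and 0 of 49 lost regions were at a promoter, and 26 and 18 of them lay under H3K27Me3. With repeat-rich regions and those under H3K27Me3 set aside, 215 gained regions at 1.25 times the limit and 76 such lost regions remained, and 171 and 37 of them were at promoters. At 1.5 times it was 14 of 16 gained and 0 of 4 lost regions. In the HFD-O304 list a peak was found on 188 of the 215 gained regions and on 42 of the 76 lost ones. Over the whole classes the corresponding shares were 44.0% and 35.1%. At promoters they were 65.9% of all gained and 55.3% of all lost regions.

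**Figure D2:**
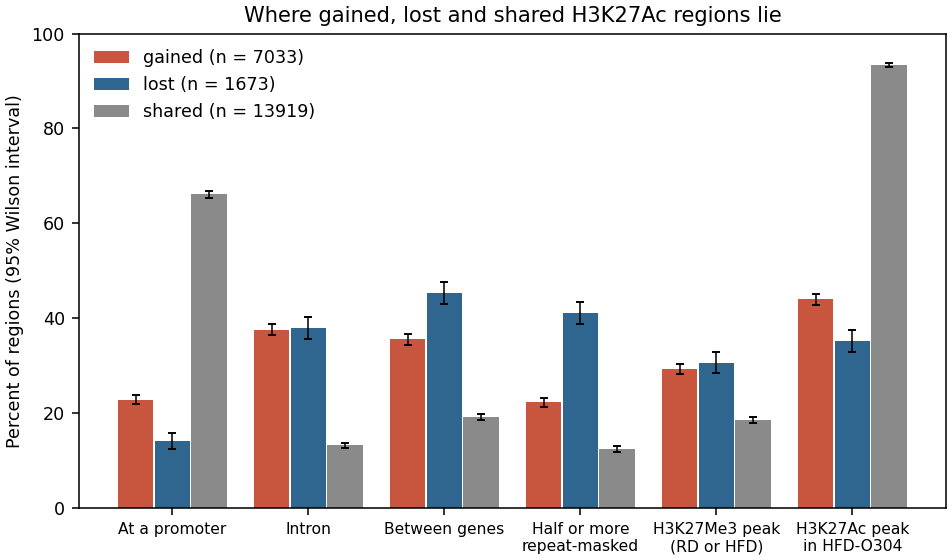
Percent of gained (n = 7033), lost (n = 1673) and shared (n = 13919) regions that lie at a promoter, in an intron or between genes, that are repeat-rich, or that overlap an H3K27Me3 peak or an H3K27Ac peak of HFD-O304. Bars are percentages of regions with 95% Wilson intervals, and shared regions stand out at promoters, with 66.1%, and in HFD-O304, with 93.3%.

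By gene, H3K27Ac was found at the promoters of 10167 of 20807 protein-coding genes in RD (48.9%) and of 11400 in HFD (54.8%). It was gained at 1416 genes (6.81%) and lost at 183 (0.88%). Of the gained promoters 1373 acquired a region that had no RD peak at all, and 43 were reached by the widening of a region already present in RD. Promoters under H3K27Me3 gained the active mark more often than others. Among genes with no H3K27Ac at the promoter in RD, it was gained by 362 of 1719 with H3K27Me3 in RD or HFD, or 21.1% (19.2 to 23.05), and by 1054 of 8921 without, or 11.8% (11.2 to 12.5). They also lost it more often. Among genes with H3K27Ac in RD, 6.82% (5.07 to 9.12) of 601 with H3K27Me3 lost it, and 1.48% (1.26 to 1.75) of 9566 without. Of the 362 gained promoters under H3K27Me3, 240 had that mark in both diets, 99 in HFD only and 23 in RD only.

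The gained promoters with the most fragments above background, free of H3K27Me3 and with under 50% of repeat-masked bases, were led by Bod1, whose product aligns chromosomes at cell division. Its region (chr11:31670143-31672348) had an HFD level of 3.81, the highest among the 10 genes named by this rule. Ranbp9, a scaffold that binds the GTPase Ran, followed in level with 3.33 over 1742 bp. At Slc17a9, the vesicular transporter that loads ATP into secretory granules, the level was 2.75 over 3073 bp. Kcnn3, a potassium channel opened by calcium, had 2.50 over 3506 bp, and Khsrp, a protein that binds RNA and governs its decay, had 2.97 over 2387 bp. The remaining genes were Git1 with 2.68, Tmc6 with 2.83, C1qa with 2.46, Wfikkn1 with 2.43 and Ninj2 with 2.41. All 10 regions also had a peak in HFD-O304, as did 65.9% of all gained regions at promoters. With lists of equal size 7 of the 10 were still gained, and C1qa, Wfikkn1 and Ninj2 were not. At Wfikkn1 and Ninj2 the HFD level was 1.01 times the lowest that RD could report.

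Lost promoters were fewer and narrower. Slc26a1, a sulfate transporter, had an RD level of 2.75 over 1484 bp (chr5:108674651-108676134), and Cemip, which takes part in the breakdown of hyaluronan, had 2.72 over 796 bp. Coa4, an assembly factor of cytochrome oxidase, had 2.66 over 919 bp. Il1r2, the decoy receptor for interleukin 1, had 2.43 over 1311 bp. Further genes were Ccdc88b with 2.54, Erich1 with 2.55, Rsu1 with 2.47, Wdr55 with 2.46 and Serpinh1, the collagen chaperone, with 2.43. No level among them passed 2.75, and HFD-O304 had a peak on 7 of the 10, against 55.3% of all lost regions at promoters. All 10 stayed lost with lists of equal size, which was fixed in advance because that setting removes peaks from HFD alone. None reached a −log10 q of 5, a limit that 4 of the 10 named gained promoters passed (Bod1, Khsrp, Tmc6 and Ranbp9). That limit was not alike in both lists, since the HFD list was deeper. A level of 2.75 had a −log10 q of 4.81 at Slc17a9 in HFD and of 3.79 at Slc26a1 in RD.

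Away from promoters, the gained regions with the most fragments were long and low. The widest were near Mvk (4247 bp, level 2.46) and in introns closest to Plekhg3 (4087 bp, 2.69) and Ctdsp2 (4023 bp, 2.39). An intronic region 10468 bp from the start of Rptor, a subunit of the growth-promoting complex mTORC1, had a level of 2.70 over 3482 bp (chr11:119831675-119835156), although the Rptor promoter itself had 3.77 in RD and 3.75 in HFD. Regions closest to Sipa1l3 and Rasd1 had 2.59 and 2.63. The lost counterparts were shorter. They lay closest to Phactr1 (2641 bp, RD level 2.60), Ush1c (2364 bp, 2.58), Urb1 (2354 bp, 2.63), Noct (2226 bp, 2.48), Dennd1a (2174 bp, 2.60) and Igfbp7 (2145 bp, 2.62). None of these 12 levels exceeded 2.70.

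Where both diets had a peak, levels were close to each other. Over the 13919 shared regions the median log2 ratio of the HFD to the RD level was 0.03 (0.03 to 0.04), with a standard deviation of 0.17 across regions. Promoters and other regions lay on opposite sides of no difference. The median was 0.07 (0.06 to 0.07) for 9203 regions at promoters, of which 66.5% were higher in HFD, and −0.02 (−0.03 to −0.02) for 4716 regions elsewhere, of which 43.0% were higher. The difference moved with base composition. Among promoter regions split into 5 bands by G and C share, the median log2 ratio was 0.01 (0.00 to 0.02) in the poorest band and 0.12 (0.11 to 0.13) in the richest, and away from promoters it was −0.08 (−0.09 to −0.07) in the poorest band and −0.01 (−0.02 to 0.01) in the richest. The part of base composition in the ratio was not tested.

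**Figure D3:**
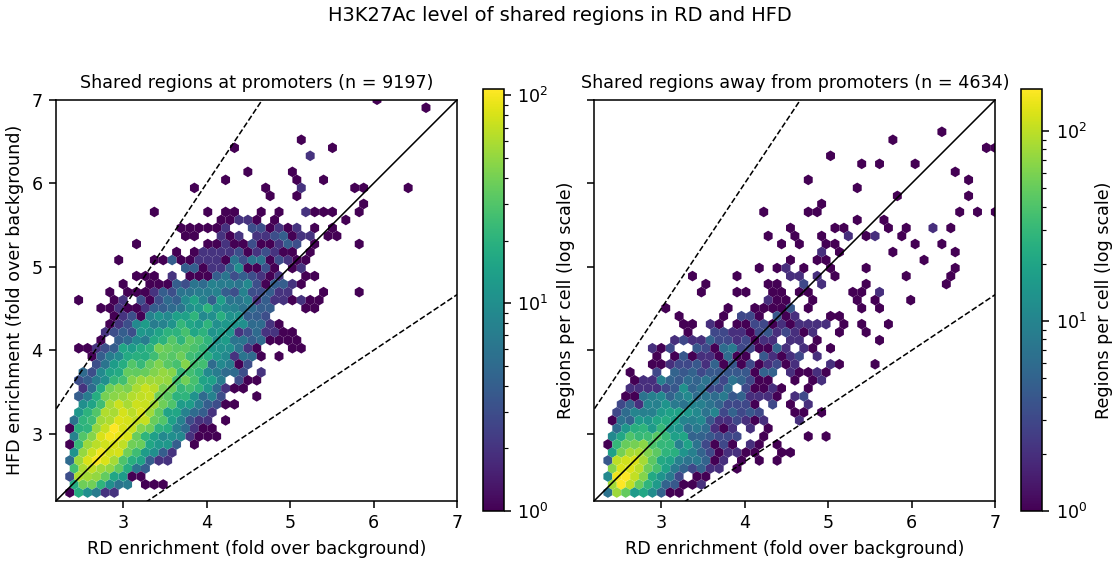
H3K27Ac enrichment in HFD (vertical axis) against RD (horizontal axis), as fold over the uniform background, for shared regions at promoters (left) and elsewhere (right). Colour gives the number of regions per cell on a log scale, the solid line is equality and dashed lines are ratios of 1.5 up and down. Regions beyond the axes are not drawn. The promoter cloud sits slightly above the line of equality, and few regions reach a dashed line.

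Called breadth differed more than level. Of the shared regions 69.5% were wider in HFD, with a median ratio of the covered lengths of 1.13 (1.13 to 1.14). Called width depends on the calling limit, which was 2.26 in HFD and 2.40 in RD, and width at a common limit was not examined. Diet and depth cannot be told apart in these widths. At least 2 times the length was covered in HFD at 1756 regions, and at most 1 part in 2 at 296. The level did not follow the width in a single direction. The median log2 ratio of levels was 0.02 (0.02 to 0.03) in the 4204 regions that were narrower in HFD, 0.05 (0.05 to 0.06) in the 6292 that were up to 1.5 times as wide, and 0.01 (0.01 to 0.02) in the 3423 that were wider still. The regions that had the highest levels in RD widened least, with a median ratio of 1.04 (1.03 to 1.05) at RD levels of 4 or more against 1.21 (1.19 to 1.22) at levels under 3.

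Single regions with under 50% of repeat-masked bases and no H3K27Me3, chosen after their values were seen, show the extent of this. At Cmip a region of 806 bp in RD spanned 7195 bp in HFD (chr8:117342971-117350165). In an intron closest to Notch1, a receptor that restrains endocrine fate, 554 bp became 6617 bp, and at Bcar1 352 bp became 6176 bp. At the promoter of Vdr, the vitamin D receptor, 2212 bp became 7253 bp. Their HFD levels lay between 2.49 and 2.79, where 2.26 was the lowest level called in HFD. Narrowing was found in an intron of Pam, the enzyme that amidates peptide hormones, where 2962 bp became 277 bp, and at a promoter region closest to Kcnk16, a potassium channel of islets, where 3384 bp became 1346 bp. The widest RD regions under the same filter stayed wide. The region at Sphk2 covered 13490 bp in RD and 15747 bp in HFD, and that at Pax6 12487 bp and 10538 bp.

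The level was at least 1.5 times as high in HFD at 26 shared regions (0.187%) and at most 1 part in 1.5 at 8 (0.0575%). The 26 were all at promoters, had G and C shares from 54.9% to 75.3%, were free of H3K27Me3 and also had a peak in HFD-O304. Shared regions at promoters mostly had these last traits, since 98.2% had a peak in HFD-O304 and 5.11% an H3K27Me3 peak. The levels of the 26 ran from 2.44 to 3.81 in RD and from 3.66 to 5.97 in HFD. The genes named next were chosen after their values were seen. The highest ratio was found at Kpna3, an importin, with 2.48 in RD and 4.58 in HFD (1.85, 1.40 to 2.47). Cdc25a, a phosphatase that lets cells enter S phase, went from 2.86 to 4.46, Gnaq, the G protein subunit by which acetylcholine and fatty acid receptors raise calcium, from 2.58 to 3.89, and Adam10, a sheddase that cleaves Notch, from 2.99 to 4.53. The interval of the ratio lay above 1 at each of the 26. They were selected by that same ratio, so the intervals give no separate support. After the ratios were centred on the median of the shared regions, 16 were left.

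Among promoter regions of at least 1000 bp in both lists, high ratios were found at Bmpr1a, a receptor of bone morphogenetic proteins, with 2.89 in RD and 4.65 in HFD (1.61, 1.34 to 1.92), and Etnk1, the kinase that starts the synthesis of phosphatidylethanolamine, with 3.81 and 5.97 (1.57, 1.35 to 1.83). Iffo2 had a ratio of 1.57, Lamp1, a protein of the lysosomal membrane, 1.55, Hdac11, a histone deacetylase, 1.54, Mapkapk2, a kinase downstream of p38, 1.54, and 1110059E24Rik 1.51. At the other end the ratios were nearer to 1. They were 0.769 (0.634 to 0.932) at the tetraspanin Cd82, 0.774 at the adenosine kinase Adk, 0.779 at Gaa, the lysosomal glucosidase of glycogen, 0.792 at Hmgn2, 0.799 at Hnrnpa1, 0.804 at the phosphatase Ptpn6, 0.804 at Ift27 and 0.806 at Ctsl, a lysosomal protease. The interval reached 1 at Ift27 (0.643 to 1.00). At a fold of 1.25, chosen after the data had been seen, the split was 654 promoters higher (6.55% of those with a peak in both) and 64 lower (0.641%).

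All 8 regions with the lower level in HFD lay away from promoters, and 7 of them were rich in repeats. Their RD levels were 4.18 to 10.1 and their HFD levels 2.68 to 2.98. The lowest ratio, 0.293 (0.267 to 0.321), belonged to a region between genes (chr1:24611606-24616119) with 10.1 in RD and 2.96 in HFD. Of its 24-base words 99.1% also occur in the mitochondrial genome, so that it is a nuclear copy of mitochondrial DNA and reads from both cannot be told apart. A pair of lost regions had the same property, in an intron of Myo3a (chr2:22589232-22590026, 74.5%, RD level 3.47) and near Galc (chr12:97061471-97061786, 91.8%, RD level 4.92), and no gained region did.

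The most enriched gained and lost regions of all were short, and most were rich in repeats or under H3K27Me3. The 3 gained ones, closest to Fam107a, Dop1b and Dcdc2a, had levels of 20.3, 15.2 and 9.51, were 278 to 339 bp long and all overlapped an H3K27Me3 peak. Among the lost ones an intronic region of Chl1 had an RD level of 402 over 1245 bp, with 76.9% repeat-masked bases and an H3K27Me3 peak in both diets, and regions closest to Cr2 and Msl2 had 22.7 and 7.86. None of the gained 3 had a peak in HFD-O304, which was found on 44.0% of all gained regions.

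Genes of islet function were followed as lists. The transcription factors of β-cell identity kept H3K27Ac almost throughout. Of 20 genes, 18 had a promoter peak in both diets and Neurod1 in HFD only, and Foxa1 had none. The ratios of the 18 lay between 0.878 and 1.17 with a median of 1.01, against 1.05 for all 9984 genes with a peak in both. Pdx1 had 2.93 in RD and 3.14 in HFD, Nkx6-1 4.06 and 4.20, Pax6 2.99 and 2.94, and Mafa, the activator of insulin genes in mature cells, 3.17 and 2.92. Of the 18 genes 13 had wider regions in HFD, with a median ratio of widths of 1.11 against 1.13 over all genes. The regions at the Pdx1 promoter covered 2983 bp in RD and 4934 bp in HFD, those at Mafa 1231 bp and 2758 bp, and those at Nkx2-2 4558 bp and 6844 bp, whereas those at Nkx6-1 covered 4392 bp and 4369 bp. Neurod1, which drives insulin transcription through E-boxes, was counted as gained because a shared region widened into its promoter window. That region had 2.86 over 1055 bp in RD and 2.73 over 2045 bp in HFD.

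Insulin and granule genes were like these factors in level but not in width. A peak was found in both diets at 13 of 17, with a median ratio of 0.979, and Vgf, a granule peptide precursor, was gained with a level of 2.59. Ins1 had 2.86 in RD and 3.12 in HFD, and Ins2 2.81 and 2.75. Cpe, the carboxypeptidase that trims proinsulin, had the largest ratio of the list, with 3.60 and 5.05 (1.40, 1.09 to 1.82). Only 4 of the 13 had wider regions in HFD, with a median ratio of widths of 0.889, against 7145 of 9984 and 1.13 over all genes. Chga, a granin, was among the 4, with 2915 bp in RD and 6447 bp in HFD, and Chgb, another granin, had 912 bp and 818 bp. Iapp, Scg2 and Slc30a8 had no promoter peak in either diet.

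In glucose sensing and exocytosis 18 of 23 genes had a peak in both diets, 3 gained it and none lost it. The gained genes were Slc2a2, the glucose transporter of mouse β-cells, Gipr, an incretin receptor, with a level of 2.51, and Rab3a, a GTPase of granule docking, with 2.78. Slc2a2, like Neurod1, was counted only because a shared region widened into its promoter window, and that region had 2.86 over 2372 bp in RD and 2.55 over 4624 bp in HFD. All 3 had a peak in HFD-O304, as did 67.9% of all gained promoters. They were still gained with lists of equal size, and none reached a −log10 q of 5. They make up 13.04% of the list against the 6.81% of all genes, and single promoters decide a share of so few genes. Cacna1a, a subunit of a calcium channel that triggers secretion, had 2.45 in RD and 3.16 in HFD (1.29, 1.04 to 1.60), and Kcnj11, the pore of the ATP-sensitive potassium channel, 3.26 and 3.17. At the start of Abcc8, the other subunit of that channel, the region had 2.89 over 4433 bp in RD and 2.99 over 4975 bp in HFD. Glp1r, the receptor of glucagon-like peptide 1, had the broadest acetylation of the list, 37830 bp in RD and 42340 bp in HFD at levels of 3.15 and 3.17.

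**Figure D4:**
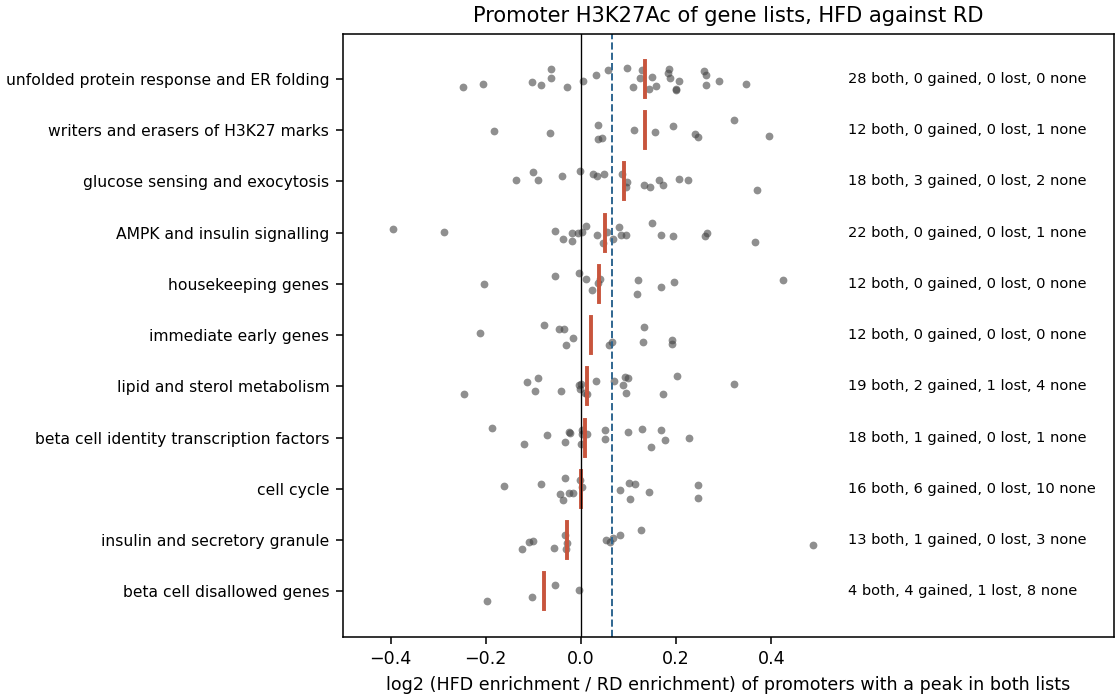
Log2 ratio of HFD to RD promoter enrichment (horizontal axis) of genes with a peak in both lists, by gene list. Each point is a gene, red bars are list medians, the solid line is no difference and the dashed line is the median of all 9984 such genes, and the text gives promoters with a peak in both diets, gained, lost and with none. Medians run from below 0 for disallowed and granule genes to 0.14 for the unfolded protein response.

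All 28 genes of the unfolded protein response and ER folding had a promoter peak in both diets. Their median ratio was 1.10, and 21 (75%) were higher in HFD, against 66.2% and 1.05 over all genes. Hspa5, the main chaperone of the ER, had 3.66 in RD and 4.23 in HFD (1.15, 1.01 to 1.32), and Pdia3, a disulfide isomerase, 3.60 and 4.40 (1.22, 1.04 to 1.44). Eif2ak3, the stress sensor PERK, had 3.93 and 4.72 (1.20, 1.03 to 1.40), and Edem1, which sends misfolded proteins to degradation, 3.04 and 3.87 (1.27, 1.06 to 1.53). Others lay below 1, among them Calr with 3.09 and 2.60 and Dnajc3 with 4.74 and 4.11. Xbp1, the transcription factor of the response, had 5.12 and 5.32. At Hspa5 the region was narrower in HFD (1671 bp against 3477 bp) while its level was higher. The mean was thus taken over a much shorter stretch in HFD, and the level over a common stretch was not examined.

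Of 32 cell cycle genes, the longest list, 16 had a promoter peak in both diets, 6 gained it (18.8%, against 6.81% of all genes) and 10 had none. The gained genes were Mki67, the marker of dividing cells, with 2.44, Ccna2 with 2.51, Ccnd1 with 2.42, Plk1 with 2.31 and the replication helicase subunits Mcm2 with 2.74 and Mcm6 with 2.90. Their regions were 312 to 1006 bp long. Mki67, Ccnd1, Plk1 and Mcm2 also had a peak in HFD-O304, as did 67.9% of all gained promoters. With lists of equal size only Ccna2, Mcm2 and Mcm6 were still gained, and of the 6 only Mcm6 reached a −log10 q of 5. The 16 genes with a peak in both diets had a median ratio of 1.00, with Ccnd2, the cyclin of β-cell growth, at 2.81 and 3.04.

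The 250 bases upstream of the start sites of Mki67 and Slc2a2 differ widely in composition, with 71.6% and 47.2% G and C, and are shown for that reason. They were taken from RefSeq (GRCm38.p6), on the strand of each gene, at chr7:135716380-135716629 (minus strand) and chr3:28697653-28697902 (plus strand). None of the 10 motifs searched was found in either. RefSeq sequences were matched for 4 of 8 genes asked for.
Mki67: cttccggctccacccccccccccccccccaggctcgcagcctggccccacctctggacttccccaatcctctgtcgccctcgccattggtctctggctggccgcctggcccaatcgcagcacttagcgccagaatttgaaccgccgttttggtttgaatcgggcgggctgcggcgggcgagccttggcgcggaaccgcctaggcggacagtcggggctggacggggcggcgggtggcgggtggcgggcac
Slc2a2: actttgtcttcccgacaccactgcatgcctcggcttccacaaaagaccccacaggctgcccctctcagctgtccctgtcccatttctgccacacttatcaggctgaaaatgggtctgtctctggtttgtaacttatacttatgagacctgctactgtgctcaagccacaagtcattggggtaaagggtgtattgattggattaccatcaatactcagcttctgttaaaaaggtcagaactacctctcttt

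Genes that β-cells normally keep silent, the disallowed genes, and genes of dedifferentiated cells were examined next. Of 17 disallowed genes 4 had a peak in both diets, 4 gained it (23.5%, against 6.81% of all genes) and 1 lost it (0.88% of all genes). H3K27Me3 was at the promoter of 12 of them, and of 2320 of all 20807 genes. The gained genes were Acot7 with 2.71, Igfbp4 with 2.85, Tgm2 with 2.74 and Itih5 with 2.38, and Oat was lost with an RD level of 2.67. With lists of equal size 3 were gained and 3 lost. At Igfbp4 H3K27Me3 was called in both diets, with 3.13 in RD and 3.66 in HFD, and at Acot7 in HFD only. The 4 genes with a peak in both, Slc16a1, Hk1, Smad3 and Rest, all had ratios below 1, from 0.872 to 0.997. Over all genes with a peak in both, 66.2% had a ratio above 1. Of 12 genes of dedifferentiation and progenitors only Aldh1a3, an enzyme of retinoic acid synthesis, was gained, with 2.50 over 870 bp, and it had H3K27Me3 in both diets (2.93 in RD and 3.27 in HFD) and no H3K27Ac peak in HFD-O304. Hes1 and Txnip had a peak in both diets, with ratios of 0.994 and 0.914.

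Genes of lipid and sterol metabolism had a peak in both diets at 19 of 26 promoters, with a median ratio of 1.01. Scd2, a desaturase, and Fdps, of the sterol pathway, were gained with 2.55 and 2.32, and Angptl4, an inhibitor of lipoprotein lipase, was lost with 2.56 in RD. Cpt1a, which admits fatty acids into mitochondria for oxidation, had 2.65 in RD and 3.31 in HFD (1.25, 1.06 to 1.47). The synthetic genes Fasn and Acaca had 3.64 and 3.87, and 3.05 and 3.07. In AMPK and insulin signalling 22 of 23 genes had a peak in both diets, with a median ratio of 1.04. Irs2, the substrate through which insulin and incretins preserve β-cells, had 4.13 and 4.07 over 7189 bp and 7595 bp. Akt2, a kinase of the insulin pathway, had the lowest ratio, with 3.81 in RD and 2.89 in HFD (0.760, 0.675 to 0.857), over regions of 2217 bp and 7099 bp, so that the mean was taken over a much longer stretch in HFD. Mtor had 2.87 and 3.70 (1.29, 0.934 to 1.77).

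Genes that write and erase marks on lysine 27 had peaks in both diets at 12 of 13 promoters. Their median ratio was 1.10 and 10 (83.3%) were higher in HFD, against 1.05 and 66.2% over all genes. Suz12, a core subunit of the Polycomb methyltransferase, had 2.96 in RD and 3.89 in HFD (1.32, 1.08 to 1.61), and the deacetylase Hdac2 3.83 and 4.79 (1.25, 1.05 to 1.49). Ep300, which encodes p300, had 5.23 and 5.65. All 12 immediate early genes and all 12 housekeeping genes had a peak in both diets, with median ratios of 1.02 and 1.03. Housekeeping promoters alone ranged from 0.868 at Ywhaz to 1.34 at Rplp0, a spread as wide as that of the unfolded protein response, where ratios ran from 0.843 to 1.27.

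Markers of other cells that a hand-picked islet can bring along were mostly without H3K27Ac. Exocrine acinar and ductal markers had a promoter peak at 4 of 19 genes in RD and 3 in HFD, with the acinar elastase gene Cela3b lost (2.78 over 289 bp). Endothelial and mesenchymal markers had 2 of 16 in RD and 1 in HFD, with Flt1 lost (2.54 over 289 bp). Macrophage and leukocyte markers had 0 of 14 in RD and 1 in HFD, which was C1qa, and genes of unrelated tissues had 0 of 11 in both. Of 11 genes of α-, δ- and PP-cells, 2 had a peak in both diets, among them Etv1, and the hormone genes Gcg, Sst, Ppy and Pyy had none in either. The share of these markers in the gained and lost regions was not tested, and a change in the share of a cell type cannot be told apart from a change within cells.

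Some loci held many gained regions. Within a gene and 50 kb either side, 8413 of 20807 genes had more gained than lost regions and 1141 had more lost than gained. Gained regions were more numerous at large too, an excess that fell to 1.07 for each lost one with lists of equal size. That setting largely fixes the balance in advance. Counts by locus were not set against list size or locus length, and the windows of Gse1, Msi2 and Zmiz1 span 453, 479 and 308 kb. At Gse1, a partner of histone deacetylase complexes, 17 regions were gained and 0 lost, all in introns, and the covered length went from 30.7 kb to 62.3 kb. The gained levels lay between 2.26 and 2.97, and 14 of the 17 had a peak in HFD-O304, against 44.0% of all gained regions. Gse1 lies within Gm20388, a read-through gene model of great length that counted 45 gained and 3 lost. Msi2, which encodes a protein that binds RNA in progenitor cells, had 15 gained and 0 lost (8.35 kb to 25.2 kb), and Zmiz1, a coregulator of transcription factors, 13 and 0 (8.52 kb to 26.01 kb). The promoters of all 3 genes had a peak in both diets, with ratios of 1.13 at Gse1, 0.986 at Msi2 and 1.08 at Zmiz1. Dnah8, whose window reaches into the neighbouring Glp1r, had 21 gained and 8 lost (124.0 kb to 161.8 kb). At Tcp10c all 11 gained regions lay under H3K27Me3.

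Net loss was rare with these lists, and only 5 of 20807 genes had a balance of −3 or lower. The largest was at Ero1lb, the ER oxidase that forms disulfide bonds in proinsulin, where 6 regions were lost and 0 gained. They had RD levels of 2.40 to 2.70, and 3 lay in introns and 3 beyond the gene. A peak in HFD-O304 was found on 1 of the 6, against 35.1% of all lost regions. The covered length was 11.3 kb in RD and 7.10 kb in HFD, while the promoter kept its level, with 4.07 in RD and 3.94 in HFD. Genes with a balance of −3 included Fam110b with 0 gained and 3 lost, Gpc6 with 1 and 4, and Myo3a with 0 and 3, of which 1 is the mitochondrial copy described above. At Abcc8 both directions met, with 8 gained and 5 lost regions and a covered length of 28.1 kb in RD and 39.8 kb in HFD. There a region of 5 RD peaks (4062 bp) was a single HFD peak of 10444 bp (chr7:46126734-46137202) at levels of 2.72 and 2.62.

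**Figure D5:**
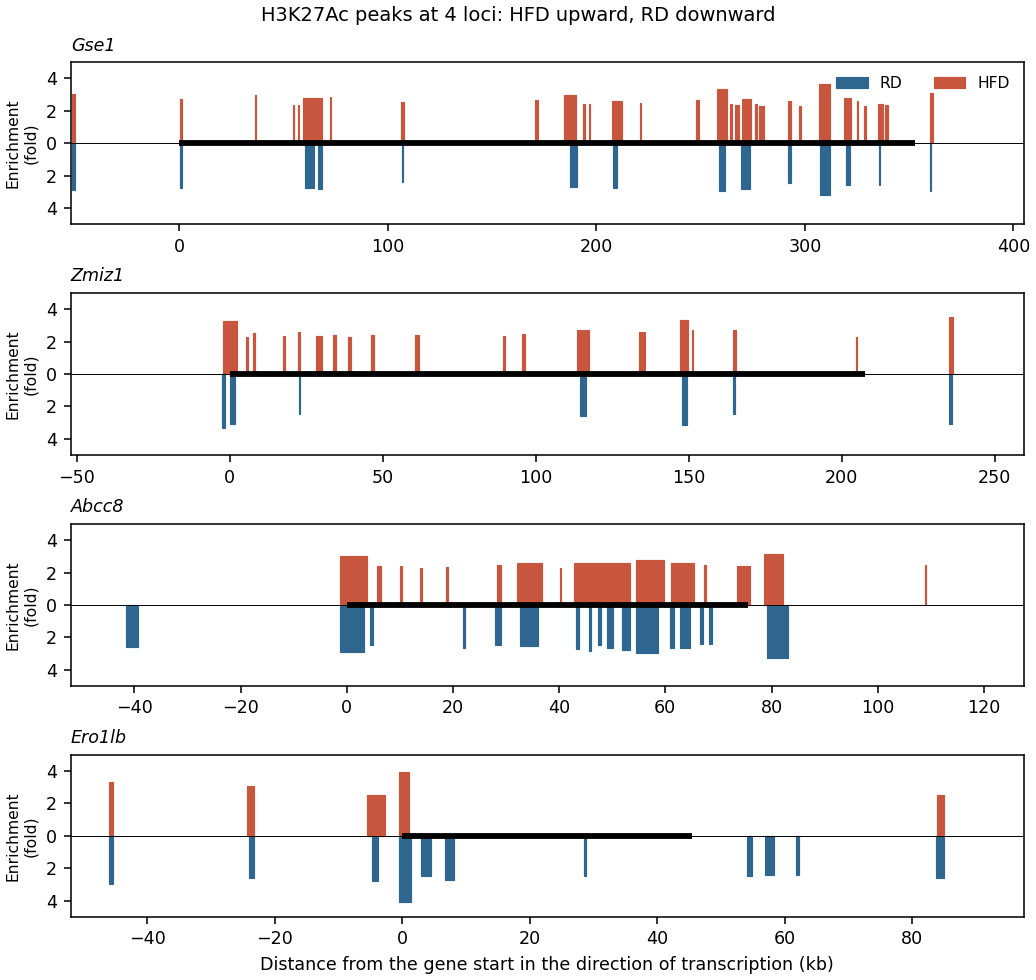
H3K27Ac peaks at Gse1, Zmiz1, Abcc8 and Ero1lb, with HFD peaks drawn upward and RD peaks downward at their enrichment (vertical axis, fold over the uniform background) against distance from the gene start in the direction of transcription (horizontal axis, kb). The black bar is the gene. HFD peaks outnumber RD peaks along Gse1 and Zmiz1, RD peaks fuse into a longer HFD peak within Abcc8, and 6 RD peaks at Ero1lb have no HFD counterpart.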

How the data were processed

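H3K27Ac peak lists of RD and HFD islets were compared on chromosomes 1 to 19. Per the paper's methods and the file headers, the authors mapped paired reads with bowtie2 to GRCm38 (Ensembl 96), pooled both replicates of each group, and used MACS 2.1.2 for broad peaks without a control or a local background, at a q-value cutoff of 0.01 and an effective genome size of 1.87e+09. The cutoffs are those of the headers, and the command options printed in the methods are looser. The pileup deposited for each peak is a coverage signal, a mean of fragments at each position. Peaks were ranked and filtered by the deposited −log10 q-value. The deposited fold enrichment is the ratio of pileup plus 1 to background plus 1 and was used as an alternative. The input samples were not used here, and the labels do not say whether the 2 samples of a group came from separate animals.

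Enrichment was computed as pileup divided by the uniform background, which is kept fragments times fragment size over genome size. A region with several peaks took their mean weighted by length. Promoter levels used the peaks that touch a promoter window, and promoter widths the whole joined regions, a choice made after the data had been seen. Genes and start sites came from GENCODE M21 of the same build (20807 protein-coding genes, 52092 start sites), and 0 peaks passed a chromosome end. Levels were compared as ratios with exact conditional binomial intervals on estimated fragments, shares with Wilson intervals and medians with intervals from order statistics. No test between diets was possible. Joining was tested on simulated data. Python 3.11.15, numpy 2.4.6, pandas 2.3.3 and scipy 1.17.1 were used. The regions and gene lists were chosen with earlier results of these data known. Genes named, unless said otherwise, were list members, or the 10 gained and 10 lost promoters with the most estimated fragments above background, the 8 promoters with the highest and the 8 with the lowest ratio in regions of 1000 bp or more in both lists, and 6 distal regions each way (under 50% repeat-masked bases, no H3K27Me3). The 3 most enriched regions each way and the 6 loci with the largest net gain or loss were named as well. Only 5 loci of net loss were taken, since the next place was tied. Some genes that these rules name are not reported here.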

Additional observations from a re-analysis of the deposited data

Results flagged for a closer look

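Chromosome X was outside the comparison and held signal of the same kind. There the RD list had 263 peaks and the HFD list 363, which formed 434 regions. Of these 173 were gained (39.9%), 72 were lost (16.6%) and 189 were shared. Both shares exceeded those of every chromosome from 1 to 19, where gained regions made up 26.7% (chromosome 9) to 34.5% (chromosome 4) and lost regions 4.52% (chromosome 17) to 11.1% (chromosome 3). The median log2 ratio of the shared regions on X was −0.04 (−0.07 to −0.01), below the 0.03 of the other chromosomes. All were listed because these regions were left out of the main measurement, and the difference was not tested.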

How the results depend on the processing

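With 1 list per diet the results rest on calling limits and depth, and a region near the limit may be absent from a list without being absent from the islets. No paired analysis was possible because each diet has a single list from merged replicates, and leaving out a replicate was impossible too. Over 15 alternatives, 36 of 88 values were labelled the same, 52 moved and 0 reversed. Those with q 5 for presence alone, a fold of 1.25, enrichment less 1 and fragments above background were added after the data had been seen. The bounds behind these labels are not given here. Counts and shares have no sign to reverse, so the absence of reversals bears only on the median log2 ratio. An order could change under the label moved. Raised and lowered regions went from 26 and 8 to 0 and 1 at a fold of 2. The cause of a move was not tested unless the setting itself removes peaks.

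With a −log10 q of at least 5 in both lists, 3477 regions were gained and 649 lost, 11 were raised, the median log2 ratio was 0.047, 2439 promoters were gained, promoter shares were 66.3% of gained and 33.9% of lost regions, and H3K27Me3 shares 17.8% and 27.7%. With −log10 q of 5 for presence and no peak at all in the other list, 785 were gained and 194 lost, 388 promoters gained and 16 lost, with promoter shares of 49.8% and 9.79% and an H3K27Me3 share of lost regions of 28.4%. With lists of equal size there were 3082 gained and 2877 lost regions and 920 gained and 445 lost promoters, with promoter shares of 32.0% and 17.9% and an H3K27Me3 share of gained regions of 32.3%. A common lowest enrichment gave 4655 gained regions, 275 lost promoters, a median of 0.042, a promoter share of gained regions of 27.5% and an H3K27Me3 share of 31.9%. Without repeat-rich peaks 1040 regions were lost and 1 was lowered, the median was 0.048, promoter shares were 29.0% and 22.8%, and H3K27Me3 shares 15.9% and 17.8%. A promoter window of 2500 bp gave promoter shares of 26.2% and 16.7%.

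Raised and lowered regions numbered 16 and 14 after centring on the median, which sets the median to 0, 0 and 1 at a fold of 2, 709 and 211 at a fold of 1.25, 231 and 83 by enrichment less 1, and 4219 and 899 by fragments above background per kept fragment, which counts width too. The median log2 ratio was 0.052 and 0.288 by the last pair of measures, 0.046 by the deposited fold and 0.045 with single peaks that overlapped by 50% in both lists. Gained per lost ranged from 1.07 with equal lists, which largely fix that balance in advance, to 5.36 with −log10 q of 5 in both.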

Other observations

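Short motifs, searched on both strands in the central 300 bp of each region, were counted in gained, lost and shared regions. Away from promoters the E-box letters CAGATG, bound by factors such as NEUROD1, were found in 21.4% (20.4 to 22.5) of gained regions. Lost regions away from promoters had 22.2% (20.1 to 24.4) and shared ones 19.2% (18.1 to 20.4). At promoters gained, lost and shared regions had 15.5%, 13.6% and 10.4%, and windows at 52092 start sites had 14.7%. The AP-1 letters TGAGTCA were found in 5.05% (4.50 to 5.67) of gained and 3.06% (2.29 to 4.08) of lost regions away from promoters. These intervals did not overlap, but that of shared regions away from promoters, with 4.26% (3.72 to 4.88), overlapped both. Repeat-rich regions made up 28.7% of gained and 47.6% of lost regions away from promoters. The part of repeats in the AP-1 shares was not tested. The homeodomain letters TAATTA were in 3.54% (3.08 to 4.06) of gained and 4.38% (3.44 to 5.57) of lost regions away from promoters. At promoters gained regions differed from shared ones. The ETS letters CCGGAAGT, usual at housekeeping promoters, were in 1.68% (1.16 to 2.43) of gained and 4.32% (3.93 to 4.76) of shared promoter regions, against 4.50% of start site windows, and the GC box GGGGCGGGG in 11.2% (9.74 to 12.8) and 14.2% (13.5 to 14.9). The other letters searched were TGCTGAC (MAF), TGTTTAC (FOXA), TGACGTCA (cyclic AMP response element), TTCCNGGAA (STAT) and GTTGCCA (RFX). Away from promoters TGCTGAC was in 5.75% (5.16 to 6.403) of gained and 4.52% (3.56 to 5.72) of lost regions, TGTTTAC in 3.59% and 3.13%, TGACGTCA in 0.258% and 0.487%, TTCCNGGAA in 0.627% and 0.834%, and GTTGCCA in 3.56% and 2.85%, and for each of these 5 the intervals overlapped. A match is a description of letters and not of binding.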
